A study of Homo sapiens with 36 samples.

Results

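The RNA of 10 genes of secreted and membrane-anchored serine proteases was followed through 36 RNA-seq libraries of breast cell lines, out of 60725 Ensembl genes measured. They are 6 kallikreins (KLK5, KLK6, KLK7, KLK8, KLK10 and KLK11) and 4 membrane-anchored proteases (TMPRSS4, ST14, PRSS8 and HPN), chosen by name with results of these data known, so their fitted changes are descriptions of a selected set. The libraries fall into 18 groups of 2. In 10 groups the cells are ER-Src, the non-tumorigenic breast epithelial line MCF-10A carrying v-Src fused to the ligand-binding domain of the estrogen receptor. They received ethanol (ETH, non-transformed) or tamoxifen (TAM, which switches v-Src on; the labels list it together with AZD0530, an inhibitor of Src-family kinases), each after a control siRNA (Ctrli) or a pooled siRNA against YAP1 (YAPi), WWTR1, which encodes TAZ (TAZi), STAT3 (STAT3i) or JUNB (JUNBi). The other 8 groups are MDA-MB-231, a mesenchymal-like breast cancer line, in set 1 (Ctrli, YAPi, TAZi, both siRNAs together as YAPi_TAZi, and TEADi, against the TEAD factors that YAP and TAZ bind) and set 2 (Ctrli, JUNBi and STAT3i). The comparisons ask how the RNA of each protease stood when one of these factors was depleted, in ER-Src both with ethanol and with tamoxifen.

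Serine proteases of these families are made as inactive precursors and cut one another outside the cell or at its surface. In the epidermis, kallikreins shed from differentiating keratinocytes cleave the junction proteins that hold dead cells together, and the membrane protease matriptase (ST14), with prostasin (PRSS8), maintains the barrier of most epithelia. Each step is held back by dedicated inhibitors of the Kunitz, Kazal and serpin families, and several of the proteases are found raised in carcinomas.

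Depth ran from 1411304 to 19161700 expected counts a library, and from 6419720 upward in ER-Src. MDA-MB-231 set 1 was uneven, with 13456784 and 13534560 in its controls but 1411304 to 2784605 in its knockdowns. Gene length minus effective length follows from the read or fragment length. In ER-Src it was 49.5 in Ctrli, YAPi and TAZi libraries and 49.0 in those of STAT3i and JUNBi. Knockdown of STAT3 or JUNB cannot be told apart from this property in comparisons with Ctrli, YAPi or TAZi. The targeted RNAs fell as labelled: under TAM, mean TPM (RNA abundance scaled to library and transcript length) was 5.03 for YAP1 in YAPi against 29.3 in Ctrli, 1.34 against 6.52 for WWTR1 in TAZi, 8.24 against 39.0 for STAT3 in STAT3i, and 17.6 against 62.7 for JUNB in JUNBi. JUNB also averaged 14.7 TPM in STAT3i TAM. The basal keratin KRT5 ranged from 1032 to 2556 TPM over the ER-Src group means and from 0 to 5.74 over those of MDA-MB-231, whereas vimentin (VIM) reached 514 to 2557 in the latter. Nothing in the labels says that the 2 libraries of a group came from separate cultures, so p-values measure the spread between these libraries, which may be technical.

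The 10 genes separated into 3 kinds by level. ST14 (7.57 to 15.6 TPM) and PRSS8 (4.86 to 10.4 TPM) were read in all 20 ER-Src libraries. TMPRSS4 and the kallikreins were near 0 in most groups and rose to 10.4 TPM (TMPRSS4) and 4.88 TPM (KLK5) in a few. HPN, or hepsin, a protease best known from liver, had at most 3 counts in any library. In MDA-MB-231 ST14 was the one member read in all 16 libraries, at 0.31 to 3.06 TPM. TMPRSS4, KLK5, KLK6, KLK7 and KLK8 had 0 counts in all 16, PRSS8 at most 4, and KLK10 10 counts in a single control library of set 2.

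**Figure D1:**
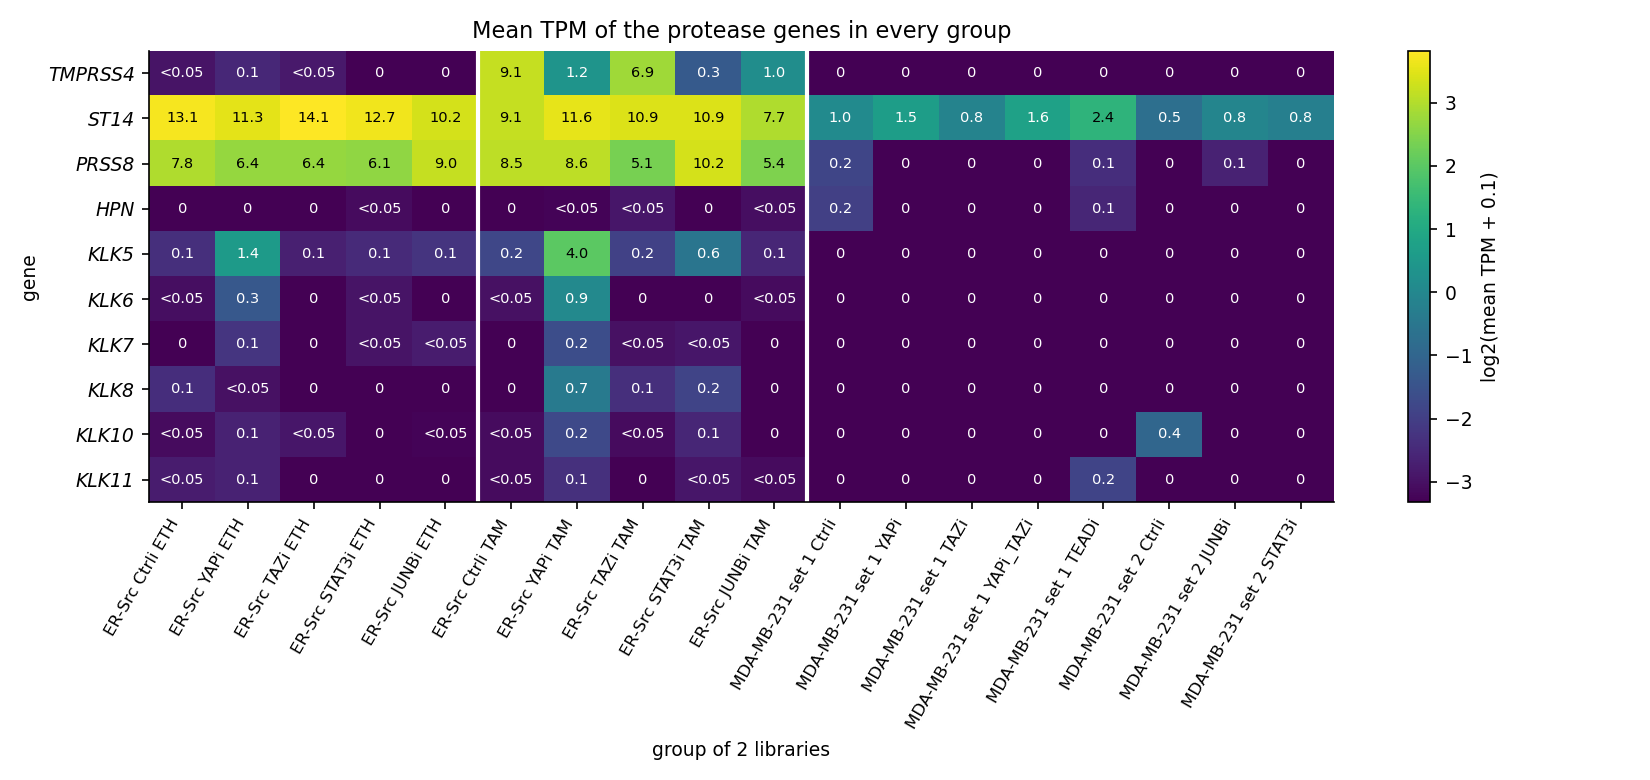
Mean TPM of the 10 serine protease genes (rows) in the 18 groups (columns); colour shows log2(mean TPM + 0.1) of the 2 libraries of a group. ST14 and PRSS8 fill the 10 ER-Src columns, TMPRSS4 stands out in the Ctrli TAM and TAZi TAM columns, and KLK5 and KLK6 in the 2 YAPi columns.

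TMPRSS4 encodes a type II transmembrane serine protease that is raised in several carcinomas. Its gene, ENSG00000137648, lies at chr11:118077012-118121890 on the plus strand (hg38). It was nearly silent in ethanol and was induced by tamoxifen. The 2 Ctrli ETH libraries held 0 and 1 counts (0 and 0.06 TPM), and the 2 Ctrli TAM libraries held 343 and 209 counts (7.85 and 10.4 TPM). The groups were far apart, and after scaling for depth the TAM libraries were nearly equal, with 430 and 428 normalised counts. Over each pair of libraries the TAM to ETH ratio was 794 (552 counts against 1, 95% counting interval 142 to 31420). The DESeq2 log2 fold change was 9.64 (SE 1.44, adjusted p = 1.33e-09), and it passed in all alternatives. TMPRSS4 was the one member of 3 with an adjusted p that passed the threshold of 0.01 in this comparison, where 6.21% of all genes tested passed. In bulk RNA, here and below, fewer cells of a type and less RNA per cell cannot be told apart.

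The knockdowns left very different amounts of TMPRSS4 in tamoxifen. TAZi TAM held 361 and 301 normalised counts. YAPi TAM held 60.7 and 14.3, JUNBi TAM 41.7 and 42.0, and STAT3i TAM 12.1 and 4.39. All libraries of the last 3 groups lay below all of Ctrli and TAZi. The ETH libraries of the knockdowns had 0 to 2 counts each, the highest in YAPi. The induction nonetheless remained visible in each knockdown: the TAM to ETH ratio was 496 in TAZi (88.8 to 19633), 28.2 in YAPi (9.28 to 139), at least 29.9-fold in JUNBi (98 counts against 0) and at least 6.13-fold in STAT3i (21 against 0), where a count of 0 was set to a floor of 3 over the group. These intervals and floors cover counting error only.

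Against Ctrli TAM, TMPRSS4 fell by 5.64 on the log2 scale in STAT3i (SE 0.42, adjusted p = 2.71e-39, DESeq2) and by 3.33 in JUNBi (SE 0.29, 1.28e-27). Both calls held in all alternatives, but STAT3i and JUNBi libraries also differed from Ctrli in gene length minus effective length, as given above. TMPRSS4 fell by 3.52 in YAPi (SE 0.92, 0.00175 by DESeq2 and 0.00320 by edgeR). That call was lost with effective length offsets (0.0460) and without either control library (up to 0.193). In TAZi the difference was -0.38 (95% interval -0.78 to 0.03, 0.396). TMPRSS4 was thus the one member called in STAT3i TAM (of 4 with an adjusted p, where 8.22% of all genes passed) and in JUNBi TAM (of 3, where 6.90% passed).

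Set in order of level under tamoxifen, TMPRSS4 ran from Ctrli (429 ± 1.65 normalised counts, SD, n = 2) through TAZi (331 ± 42.9), JUNBi (41.9 ± 0.18) and YAPi (37.5 ± 32.8) to STAT3i (8.24 ± 5.45). Direct comparisons of the knockdowns were added after these levels were seen. JUNBi was lower than TAZi by DESeq2 (log2 difference -2.96, adjusted p = 1.03e-21, where 4.30% of all genes passed). YAPi and JUNBi, its neighbours, did not differ beyond their spread (-0.19, interval -1.45 to 1.07, 0.909), nor did YAPi and STAT3i at the threshold used (2.13, 0.0529). STAT3i against JUNBi gave -2.31 (0.0195 by DESeq2, 0.00715 by edgeR, where 5.79% of all genes passed by DESeq2), and YAPi against TAZi -3.14 (0.0108 by DESeq2, 0.00848 by edgeR). The knockdown effects in TAM were not shown to differ from those in ETH: the interaction was -4.70 for YAPi (0.359), -4.02 for STAT3i (0.744) and -1.69 for JUNBi (0.9997), with ETH counts too low to measure a decrease.

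**Figure D2:**
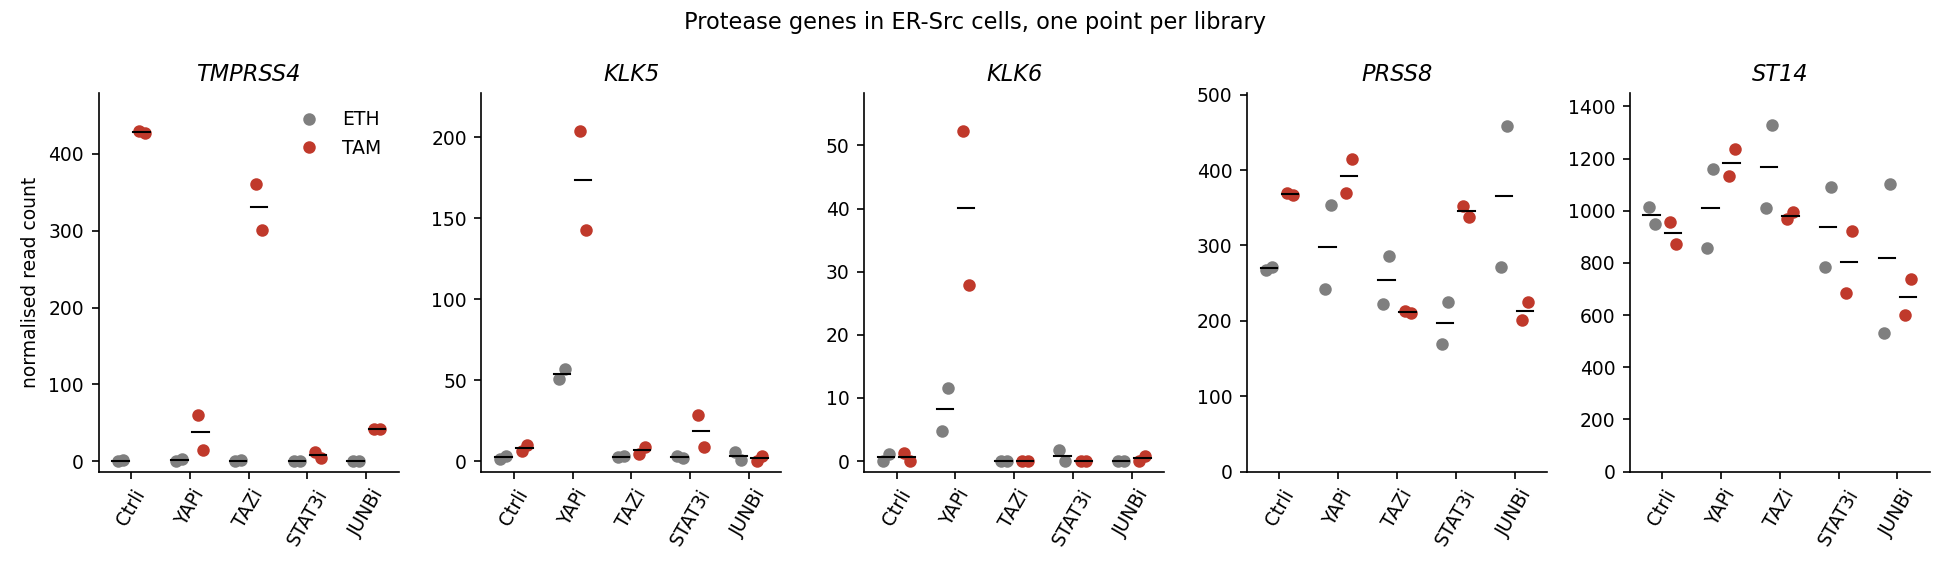
Normalised counts (expected counts divided by DESeq2 size factors of the cell line) of TMPRSS4, KLK5, KLK6, PRSS8 and ST14 in each ER-Src library; points are libraries, ETH in grey and TAM in red, and the black line is the mean of 2. TMPRSS4 is near 0 in every ETH library and highest in Ctrli and TAZi with TAM (301 to 430), whereas KLK5 and KLK6 are highest in the YAPi libraries.

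The kallikreins moved in another group. KLK5 encodes a trypsin-like protease of the epidermis that activates other kallikreins; its gene, ENSG00000167754, lies at chr19:50943303-50953093 on the minus strand. KLK6 (ENSG00000167755, chr19:50958631-50969673, minus strand), which is next to it, encodes another trypsin-like protease, known from brain and from several carcinomas. RefSeq promoter sequences were found for 6 of the 10 genes (HPN, KLK5, KLK6, KLK7, KLK10 and KLK11). YAP is a co-activator brought to DNA by factors such as TEAD, which bind known letters. The 250 bases before the start of KLK5 and KLK6 are shown because these were the 2 kallikreins called in YAPi. They are written 5′ to 3′ on the gene's strand (GRCh38.p14), and capitals mark GGAATG, the core of the site bound by TEAD factors, or its reverse complement CATTCC.

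KLK5, chr19:50953039-50953288: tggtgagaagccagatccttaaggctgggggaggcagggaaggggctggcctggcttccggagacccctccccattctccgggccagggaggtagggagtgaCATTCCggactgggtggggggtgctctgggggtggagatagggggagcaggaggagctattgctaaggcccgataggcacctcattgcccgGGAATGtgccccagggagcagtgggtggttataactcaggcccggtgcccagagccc
KLK6, chr19:50969592-50969841: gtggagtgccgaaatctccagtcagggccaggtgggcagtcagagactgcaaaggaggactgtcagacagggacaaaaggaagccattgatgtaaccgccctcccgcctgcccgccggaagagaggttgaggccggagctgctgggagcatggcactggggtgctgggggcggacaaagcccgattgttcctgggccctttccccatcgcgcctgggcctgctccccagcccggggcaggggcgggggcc

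The KLK5 window held the TEAD letters at 2 places, 148 and 57 bases before the start, one on each strand. The KLK6 window held none, and neither did the windows of KLK7, KLK10, KLK11 and HPN. Of 35116 promoters of the same length, 11.9% held the letters on either strand and 0.94% held them at 2 or more places. TGANTCA, the AP-1 letters, and TTCNNNGAA, the STAT letters, were in 6.57% of promoters each and in none of these 6 genes' windows. A match is a description of letters, not a measured site.

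KLK5 was near 0 in control cells and was read at higher levels when YAP1 was knocked down, with or without tamoxifen. Ctrli ETH held 1 and 3 counts and Ctrli TAM 5 and 5. YAPi ETH held 86 and 49 counts (1.46 and 1.34 TPM), and YAPi TAM held 195 and 200 (4.88 and 3.03 TPM). All 4 YAPi libraries lay above every other ER-Src library, the next being 1 STAT3i TAM library with 38 counts (0.81 TPM); its replicate had 10. TAZi libraries held at most 10.8 counts and JUNBi libraries at most 6. In normalised counts YAPi averaged 54.0 ± 4.44 (SD, n = 2) in ETH and 173 ± 43.2 in TAM, and the TAM to ETH ratio within YAPi was 3.17 (counting interval 2.60 to 3.88).

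Against Ctrli, KLK5 rose by 4.46 on the log2 scale in YAPi TAM (SE 0.60, adjusted p = 1.24e-11, DESeq2), and the call held in all alternatives, the highest adjusted p being 0.00131. In YAPi ETH it rose by 4.62 (SE 0.95, 2.57e-05). That call was lost on leaving out any 1 of the 4 libraries (up to 0.0172) and held in the other 6 alternatives. The TAM effect minus the ETH effect was -0.17 (interval -2.21 to 1.87, 0.9998), so no difference between the treatments was detectable. In YAPi ETH, KLK5 was the one member called of 3 with an adjusted p, where 11.6% of all genes passed. It had that adjusted p through the YAPi libraries (135 counts against 4). In STAT3i TAM the KLK5 difference was 1.24 (0.529).

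KLK6 followed the same groups at a lower level. YAPi TAM held 50 and 39 counts (1.24 and 0.63 TPM), YAPi ETH 8 and 10, and every other ER-Src library at most 2. Its log2 fold change in YAPi TAM was 5.68 (SE 1.58, adjusted p = 0.00380 by DESeq2 and 0.00597 by edgeR), from 89 counts against 1 over the 2 libraries of each group, a ratio of 48.6 (8.50 to 1941). The KLK6 call was lost without any 1 of the 4 libraries (up to 0.184). With KLK5 and TMPRSS4, it made 3 members called of 5 with an adjusted p in YAPi TAM, where 10.7% of all genes passed. Of these 3, 2 were higher (5.27% of all genes were) and 1 lower (5.40% of all genes were). KLK5 (395 counts in YAPi TAM against 10 in Ctrli) and KLK6 (89 against 1) had an adjusted p through the YAPi libraries. The 3 of 5 is therefore no measure of excess over all genes in YAPi TAM. DESeq2 gave 6 of the 10 an unadjusted p under 0.05 there, the others being KLK7, KLK8 and ST14. In TAZi TAM no member passed by DESeq2 or edgeR (3.42% of all genes did by DESeq2 and 1.33% by edgeR), and PRSS8 alone had an unadjusted p under 0.05.

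The remaining kallikrein members were read far less, with 15 counts as the highest value of an ER-Src library. KLK7, a chymotrypsin-like protease of the skin, had 15 and 4 counts in YAPi TAM, 14 and 1 in YAPi ETH, and 0 in all Ctrli libraries. KLK8, a trypsin-like protease of skin and brain, had 13 and 4 in YAPi TAM and 0 in Ctrli TAM, but 1 and 0 in both YAPi ETH and Ctrli ETH. Summed over the 2 libraries this was at least 3.46-fold for KLK7 (19 against 0) and at least 3.09-fold for KLK8 (17 against 0), with the floor of 3 counts over the group. KLK10 had 10 counts against 1 (ratio 5.46, 0.777 to 237) and KLK11 8 against 1 (4.37, 0.586 to 194), intervals that include 1. DESeq2 gave none of these 4 an adjusted p in YAPi TAM, so they were not tested at this depth. KLK8 overlaps KLK9 and a read-through transcript on the same strand, and its reads could be split between them, although none of the overlapping genes held more than 1 count over all libraries.

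Together the 6 kallikreins held 296 and 182 normalised counts in YAPi TAM, 68.0 and 71.1 in YAPi ETH, 36.3 and 12.3 in STAT3i TAM, and at most 11.1 in any other ER-Src library. The 15 kallikrein genes lie side by side on chromosome 19. The 9 that are not members had at most 1 count each in any ER-Src library, and DESeq2 gave none of them an adjusted p. The reads under YAPi thus came from KLK5 to KLK11, and mostly from KLK5 and KLK6 at one end of that stretch.

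**Figure D3:**
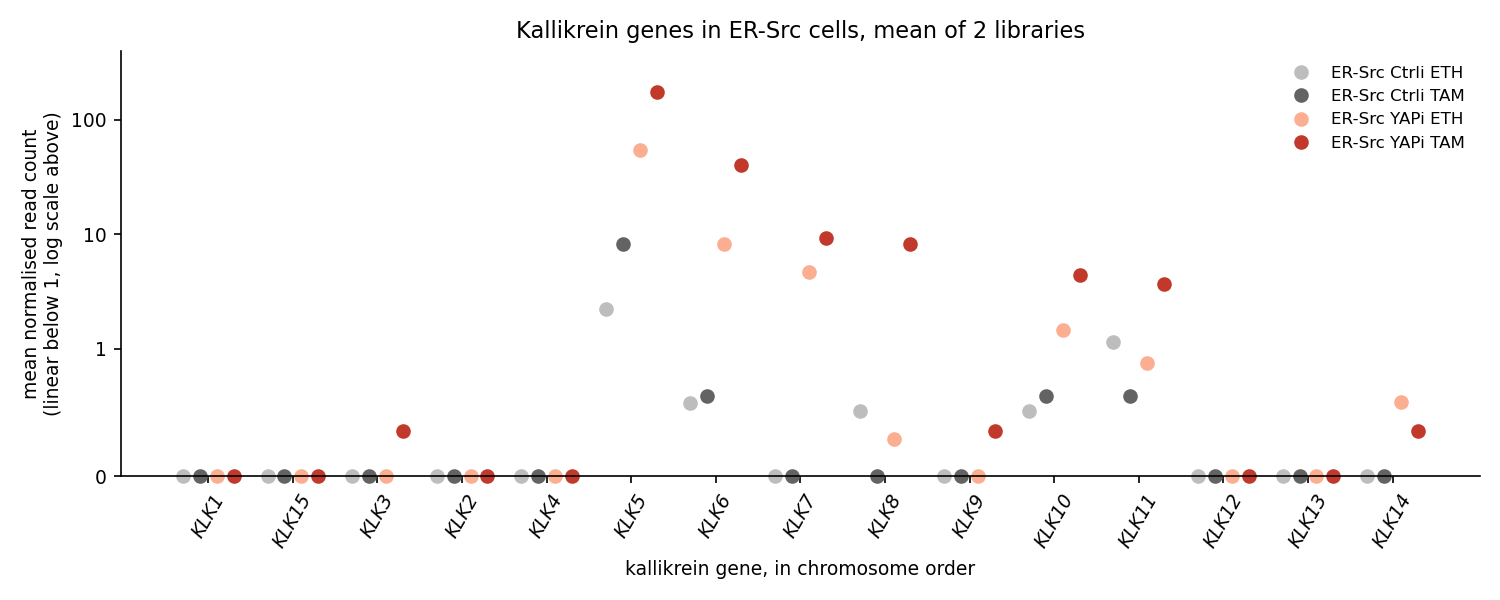
Mean normalised counts (symmetric log axis) of the 15 kallikrein genes in their order along chromosome 19, in Ctrli and YAPi with ETH or TAM; each point is the mean of 2 libraries. The YAPi points rise at KLK5 and KLK6 (YAPi TAM mean of KLK5 173), with KLK7, KLK8, KLK10 and KLK11 lower, and the other 9 genes stay at or near 0.

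The other knockdowns were compared with YAPi directly, by comparisons added after the data were seen. Under TAM, KLK5 was higher in YAPi than in TAZi by 4.67 on the log2 scale (adjusted p = 1.87e-16, DESeq2, where 6.13% of all genes passed), than in STAT3i by 3.16 (3.11e-10, where 15.8% passed) and than in JUNBi by 6.66 (3.50e-14, where 11.2% passed). The last was lost without either YAPi library (up to 0.352). KLK6 was higher in YAPi than in TAZi by 7.86 (5.70e-05), than in STAT3i by 8.03 (1.27e-05) and than in JUNBi by 6.54 (8.23e-04). The KLK6 difference from TAZi was lost without either TAZi library (up to 0.0347), that from JUNBi without JUNBi TAM replicate 1 (0.0264) or YAPi TAM replicate 1 (0.0476). Under ETH, KLK5 was higher in YAPi than in TAZi by 4.36 (3.14e-04, where 4.25% of all genes passed), a call lost in each fit without 1 library (up to 0.0778).

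Markers of differentiating squamous epithelium, the cells in which epidermal kallikreins are best known, moved in the same libraries. Summed over 6 markers (KRT1, KRT10, IVL, LOR, SPRR1B and SBSN), TPM was 30.2 and 35.7 in YAPi ETH and 41.5 and 31.6 in YAPi TAM, against 2.44 and 2.52 in Ctrli ETH, 2.35 and 1.38 in Ctrli TAM, 5.03 and 6.29 in TAZi ETH, and 1.57 to 3.66 in the other ER-Src libraries. In MDA-MB-231, where KLK5, KLK6, KLK7 and KLK8 had 0 counts, the sum was 2.28 to 62.1 TPM. It was 31.5 and 32.7 in Ctrli of set 1 and 60.6 and 62.1 in Ctrli of set 2. Of the 6 markers, 1 was above 0 in all MDA-MB-231 libraries. The envelope precursors IVL and SPRR1B rose in YAPi TAM by 8.05 (adjusted p = 6.02e-06, DESeq2) and 6.49 (1.03e-20) on the log2 scale, and SBSN by 3.86 (2.72e-18). The IVL call was lost without Ctrli TAM replicate 1 (0.0117) and that of SPRR1B without either YAPi library (up to 0.359), while that of SBSN held in every fit without 1 library. KRT10 gave 0.39 (0.681), KRT1 was at most 0.24 TPM, and LOR was at 0 in all libraries. The fibroblast list, nearly all of it decorin (DCN), summed to 58.3 to 67.5 TPM in Ctrli, 147 to 260 in YAPi and 137 to 210 in TAZi, with COL1A1 at most 0.54. The part of these markers in the kallikrein result was not tested.

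Inhibitors and substrates of these proteases were taken from lists written with earlier results known. Of 9 inhibitors, 6 had an adjusted p in YAPi TAM and 3 rose (list median 0.25, all genes 0.01); of all genes tested 10.7% passed and 5.27% were higher. SPINK6, a Kazal-type inhibitor of kallikreins, rose by 3.31 on the log2 scale (11.9 and 8.24 TPM against 0.84 and 1.35 in Ctrli, adjusted p = 1.12e-10, DESeq2). SPINK5, whose product LEKTI inhibits KLK5 and KLK7, rose by 2.62 (0.85 and 0.70 TPM against 0.12 and 0.11, 0.00116). SPINT1, whose product HAI-1 inhibits matriptase, rose by 0.56 (0.00762). Thus both KLK5 and 2 of the inhibitors named for kallikreins were higher in the same libraries. The SPINK6 call held in every fit without 1 library. Those of SPINK5 and SPINT1 were lost without any 1 of the 4 (up to 0.301 and 0.321).

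Of 13 substrates and receptors, 10 had an adjusted p in YAPi TAM, with 1 higher and 2 lower (list median 0.11), against 5.27% of all genes higher and 5.40% lower. Corneodesmosin (CDSN), a junction protein of the cornified layer that kallikreins cleave, rose by 6.45 (0.53 and 1.23 TPM against 0 and 0.03, adjusted p = 3.71e-04, DESeq2). EPCAM, an adhesion molecule that matriptase cleaves, had a log2 fold change of -1.07 (4.18e-05), and SCNN1G, the gamma subunit of the epithelial sodium channel that prostasin activates, -1.66 (1.15e-12). The SCNN1G call held without any 1 library, that of CDSN was lost without Ctrli TAM replicate 1 (0.0466), and that of EPCAM without any 1 of the 4 (up to 0.0822). Of 19 other membrane and trypsin-like serine proteases, 7 had an adjusted p and 2 rose (list median 0.23): TMPRSS13 by 6.17 (1.31 and 0.51 TPM against 0 and 0.02, 7.55e-04) and TMPRSS11E by 6.54 (0.42 and 0.51 TPM against 0 and 0, 0.00233). TMPRSS13 lost its call without Ctrli TAM replicate 1 (0.0733) or YAPi TAM replicate 1 (0.0692), and TMPRSS11E without either control (up to 0.130) or YAPi TAM replicate 1 (0.0332).

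In YAPi ETH the lists gave TMPRSS13 (4.26, adjusted p = 0.00344, DESeq2) and SPINK5 (2.25, 0.00121) as higher again, with PLAU (1.41), the epidermal structural protein FLG (1.99) and the sodium channel subunit SCNN1B (1.75). EPCAM was lower (-1.31, 4.38e-09), as was SCNN1G (-0.83). Of genes with an adjusted p, 1 of 7 other proteases and 1 of 6 inhibitors were called. Of 10 substrates and receptors, 3 were higher and 2 lower, where 11.6% of all genes passed. The PLAU and EPCAM calls held in every fit without 1 library. That of SPINK5 was lost in all 4 such fits and with effective length offsets. The TMPRSS13 call was lost in all 3 such fits that gave it an adjusted p. That of FLG was lost in 3 of 4 and by edgeR (0.0106), and those of SCNN1B and SCNN1G in 2 of 4 each. In Ctrli TAM against Ctrli ETH, PRSS23 (1.85, 4.58e-04) and PLAU, the urokinase that matriptase and hepsin can activate (1.60, 1.42e-09), were higher. PLAU held in every fit without 1 library, and PRSS23 was lost in each. These 2 were 1 of 5 other proteases and 1 of 10 substrates with an adjusted p, where 6.21% of all genes passed. In TAZi TAM SCNN1G was lower (-1.02, 6.24e-05), 1 of 9 substrates, where 3.42% of all genes passed. In JUNBi TAM PRSS23 was higher (1.23, 2.43e-04), 1 of 3 other proteases, where 6.90% passed. SCNN1G there was lost without either control or TAZi TAM replicate 2 (up to 0.261), and PRSS23 without any 1 library (up to 0.173). In TAZi ETH SPINT1 (0.70), FLG (2.14) and SCNN1A (0.82) were higher, and in JUNBi ETH the serpin SERPINA5 (1.94) and SCNN1B (2.30). In TAZi ETH these were 1 of 6 inhibitors and 2 of 9 substrates, where 5.24% of all genes passed. In JUNBi ETH they were 1 of 5 inhibitors and 1 of 10 substrates, where 2.80% passed. There edgeR, by which 0.00671% of all genes passed, called neither. Of the fits without 1 library, SPINT1 was lost in 3 of 4, FLG in all 4, and SERPINA5 and SCNN1B in 2 of 4 each. SPINT1 in TAZi ETH was also lost by edgeR (0.0228), with effective length offsets and in the fit over all groups of the cell line. With effective length offsets the adjusted p was 0.607 for SCNN1A, whose TPM overlapped (41.1 and 47.6 in TAZi, 44.7 and 35.9 in Ctrli). None of the 4 lists had a gene called in STAT3i TAM or STAT3i ETH by DESeq2 or edgeR. Of all genes, 8.22% passed in STAT3i TAM by DESeq2. In STAT3i ETH 0.189% passed by DESeq2 and 0% by edgeR, so a missing call says little there. With TAM, 1 other protease, 1 inhibitor and 2 substrates had an unadjusted p under 0.05 by DESeq2, and with ETH 2 substrates did.

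PRSS8 encodes prostasin, a membrane-anchored protease that works with matriptase and activates the epithelial sodium channel. Its gene, ENSG00000052344, lies at chr16:31131433-31135727 on the minus strand. It was read in every ER-Src group at levels within about a factor of 3 of each other. In normalised counts Ctrli held 268 and 272 with ETH and 370 and 366 with TAM, and YAPi held 242 and 354 with ETH and 369 and 414 with TAM. TAZi held 222 and 287 with ETH and 213 and 211 with TAM, STAT3i 169 and 225 with ETH and 352 and 338 with TAM, and JUNBi 272 and 459 with ETH and 201 and 225 with TAM. The TAM libraries of TAZi and JUNBi thus lay below all those of Ctrli, YAPi and STAT3i, with a gap between the 2 sets. Under ETH both STAT3i libraries lay below both Ctrli libraries, and those of YAPi, TAZi and JUNBi overlapped Ctrli.

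Against Ctrli TAM, the PRSS8 difference just missed the threshold in both: -0.80 in TAZi (SE 0.22, adjusted p = 0.0102 by DESeq2 and also by edgeR) and -0.77 in JUNBi (SE 0.24, 0.0172 by DESeq2, 0.00723 by edgeR). When genes averaging under 10 counts were dropped, the adjusted p of PRSS8 was 0.00324 in TAZi and 0.00728 in JUNBi. In no fit without 1 library was PRSS8 called in either comparison. In the direct comparisons, added after the data were seen, PRSS8 was higher in YAPi than in TAZi (0.90, 3.37e-04, DESeq2) and in JUNBi (0.87, 9.44e-04), and higher in STAT3i than in TAZi (0.73, 0.00679, where 11.2% of all genes passed). Each of these was lost in every fit without 1 library (up to 0.321, 0.255 and 0.277). JUNBi and TAZi did not differ beyond their spread (0.03, interval -0.44 to 0.51). The tamoxifen effect in control cells was 0.46 (0.262).

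The JUNBi effect on PRSS8 in TAM minus that in ETH was -1.21 (adjusted p = 0.236, DESeq2); without the first JUNBi ETH library it was -1.54 (2.52e-04). That library is 1 of the pair with the widest replicate spread in ER-Src, an SD of 0.687 between log2 values, against 0.214 to 0.285 in the groups other than JUNBi ETH and STAT3i ETH (0.491). An antisense gene overlaps PRSS8 and held 504 counts over all 36 libraries against 6005 for PRSS8 in ER-Src. Whether counting used strand is not given in the sources used here, so reads of the 2 cannot be told apart.

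**Figure D4:**
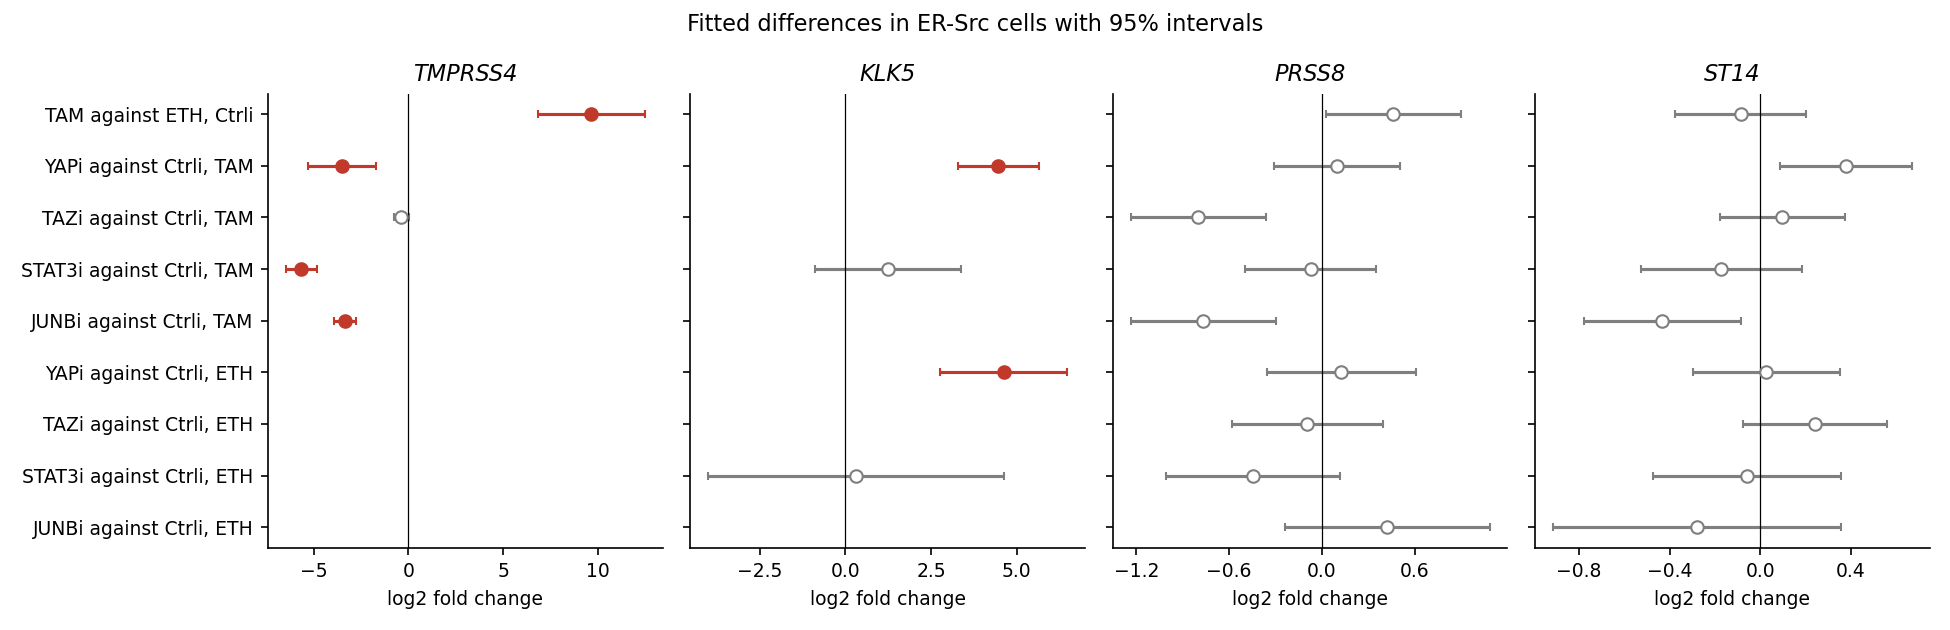
DESeq2 log2 fold changes of TMPRSS4, KLK5, PRSS8 and ST14 with 95% intervals in the 9 ER-Src comparisons, each gene on its own horizontal scale; filled red points have an adjusted p under 0.01, and a point is missing where DESeq2 gave no adjusted p. TMPRSS4 is below 0 in YAPi, STAT3i and JUNBi with TAM (-3.52, -5.64 and -3.33), KLK5 is above 0 in YAPi with TAM and ETH (4.46 and 4.62), and the intervals of PRSS8 and ST14 stay much closer to 0.

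ST14 encodes matriptase, the transmembrane protease that sits at the head of the epithelial cascade. Its gene, ENSG00000149418, lies at chr11:130159782-130210362 on the plus strand. Its median TPM over the ER-Src libraries, a level per length, was the highest of the 10. Under TAM, Ctrli held 957 and 874 normalised counts, YAPi 1132 and 1235, TAZi 967 and 995, STAT3i 685 and 921, and JUNBi 599 and 739. Both YAPi libraries lay above all other TAM libraries, and both JUNBi libraries below all of Ctrli, YAPi and TAZi. The ETH groups overlapped, with 1013 and 950 in Ctrli, 857 and 1162 in YAPi, 1010 and 1328 in TAZi, 782 and 1091 in STAT3i, and 532 and 1102 in JUNBi.

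No ER-Src knockdown differed from Ctrli at the threshold: ST14 gave 0.38 in YAPi TAM (adjusted p = 0.0641, DESeq2) and -0.43 in JUNBi TAM (0.0883). Between knockdowns, in comparisons added after the data were seen, ST14 was higher in YAPi than in JUNBi (0.82, 1.42e-05) and than in STAT3i (0.54, 0.00933); the first was lost without JUNBi TAM replicate 1 (0.0292) or YAPi TAM replicate 2 (0.0528), and the second with edgeR (0.0223) and without STAT3i TAM replicate 1 (0.403) or either YAPi library (up to 0.307). In JUNBi ETH, ST14 was called without the second JUNBi library (-0.89, 4.13e-04) and not otherwise. No member was called in TAZi ETH, STAT3i ETH or JUNBi ETH by DESeq2 or edgeR, and none had an unadjusted p under 0.05; of all genes 5.24%, 0.189% and 2.80% passed by DESeq2. By edgeR 3.37% of all genes passed in TAZi ETH, 0% in STAT3i ETH and 0.00671% in JUNBi ETH. The interactions of YAPi, TAZi, STAT3i and JUNBi with tamoxifen gave no member either, by DESeq2 or edgeR, where 0.498%, 1.60%, 1.43% and 0.288% of all genes passed by DESeq2 and 0.0966%, 0.0326%, 0.366% and 0% by edgeR; TMPRSS4 (YAPi) and PRSS8 (TAZi and JUNBi) had an unadjusted p under 0.05.

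In MDA-MB-231, ST14 was read at low counts, and set 1 showed higher shares of it in the knockdowns. The controls held 21 and 23 counts (1.22 and 0.71 TPM, 5.42 and 5.96 normalised counts). YAPi held 12 and 13 counts, TAZi 10 and 6, YAPi_TAZi 10 and 15 (1.49 and 1.70 TPM, 29.1 and 30.8 normalised), and TEADi 20 and 26 (1.77 and 3.06 TPM, 54.4 and 48.3 normalised). After scaling for depth all knockdown libraries lay above both controls, whereas in TPM the groups of YAPi (0.71 and 2.23) and TAZi (0.95 and 0.70) overlapped the controls.

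ST14 was the one member with an adjusted p in set 1. It rose by 3.05 on the log2 scale in TEADi (SE 0.58, adjusted p = 1.19e-06, DESeq2, where 27.5% of all genes passed) and by 2.28 in YAPi_TAZi (SE 0.50, 2.37e-05, where 35.5% passed). The YAPi difference was 2.00 (0.0319 by DESeq2, 0.00283 by edgeR, where 24.4% of all genes passed by DESeq2) and the TAZi difference 1.36 (0.135, where 32.8% passed). All set 1 knockdown libraries were shallower than both controls, and gene length minus effective length, which follows from the read or fragment length, was 75.0 in the controls, 48.0 in the first knockdown replicates and 74.6 in the second. In set 1 the knockdowns and these properties of the libraries cannot be told apart. The YAPi_TAZi call was lost with effective length offsets, with the controls of both sets and in every fit without 1 library (up to 0.239). The TEADi call was lost without either control library (up to 0.0160), and with the pooled remaining knockdowns of set 1 as the reference and a replicate block TEADi gave 1.14 (0.290).

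In set 2 depth was 7290499 to 8257365 in 5 libraries and 18076158 in JUNBi replicate 1. ST14 held 8 and 22 counts in Ctrli, 40 (in that deeper library) and 28 in JUNBi and 21 and 23 in STAT3i (0.31 and 0.70, 0.63 and 1.07, and 0.70 and 0.81 TPM). No member had an adjusted p there, none had an unadjusted p under 0.05, and edgeR called none. Of all genes, 3.41% passed in JUNBi and 0.497% in STAT3i by DESeq2, and 0% in either by edgeR, so a member's missing call says little there.

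Genes whose level followed a member's most closely over the 10 ER-Src group means of log2(TPM + 1) were found among 10018 or 10019 genes averaging 100 counts or more. For ST14 they were AKR1B1 (Pearson r = 0.946) and ARFRP1 (0.940), and for PRSS8 the closest was PLCXD1 (0.883). TMPRSS4 and KLK5 have lower mean counts and were added after the data were seen: TMPRSS4 was followed by GRAMD1B (0.996) and ADAMTS4 (0.993), and KLK5 by SH3BGRL3 (0.939) and AZGP1 (0.932). The 10 points of each are means of 2 libraries, and TMPRSS4 and KLK5 are near 0 in most of them.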

How the data were processed

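RNA was sequenced from ER-Src and MDA-MB-231 cells (siRNA by lipid transfection, ribosomal RNA depleted, Illumina HiSeq). The authors aligned reads to hg38 with STAR and GENCODE v30 and estimated expected counts and TPM per gene with RSEM. The deposited expected counts are not whole and were rounded; the deposited TPM values were used as levels, without a test. Of 60725 Ensembl identifiers, 93.1% were paired with symbols through GENCODE v44 (96 spike-in, 649 numeric and 1 other identifiers set aside).

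Groups came from the labels. Each comparison was a separate DESeq2 run (1.42.0, R 4.3.3) of the groups named, as in the study's methods, with Benjamini-Hochberg adjusted p under 0.01 over all genes tested; interactions used treatment and siRNA terms. Normalised counts are expected counts over the size factors of the cell line. For 2 against 2 libraries no exact permutation test can go below p = 0.333. Count ratios carry exact 95% intervals, with 0 set to 3 counts over the group. Intervals cover counting error only, and depth per library is given with the results.

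All 10 members are named. Of the other lists, each gene with an adjusted p under 0.01 is named for ER-Src cells, in comparisons with Ctrli, of TAM with ETH and of interactions. Genes of these lists also passed in MDA-MB-231 and in direct comparisons of knockdowns, and they are not named there. The members and lists were chosen with earlier results of these data known. TMPRSS4, KLK5 and KLK6 had an adjusted p through the groups where they were high. The share of members called is therefore no measure of excess over all genes. Alternatives were edgeR 4.0.16 quasi-likelihood, TMM factors, a mean count of at least 10, effective length offsets, a fit over all groups of a line, a replicate block, controls of both MDA-MB-231 sets, other knockdowns as reference, and leaving out each library. The 7 further comparisons between knockdowns were chosen after the data were seen. Scripts were tested on simulated counts. No pair of libraries held identical values. For each gene with a mean count of at least 100 the 2 most similar genes by pattern were sought, and 1 of those for PRSS8 is not reported here.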

Additional observations from a re-analysis of the deposited data

Results flagged for a closer look

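The following 2 protease-related genes had an adjusted p under 0.01 by DESeq2 in an interaction test of treatment and knockdown. Neither passed by edgeR. PLAU was 1 of 10 substrates and receptors with an adjusted p for YAPi, where 0.498% of all genes passed. SCNN1G was 1 of 3 for TAZi, where 1.60% passed. For PLAU, which encodes urokinase, the YAPi effect in TAM minus that in ETH was -1.25 on the log2 scale (adjusted p = 8.41e-04 by DESeq2, 0.0149 by edgeR). YAPi and Ctrli overlapped under TAM (7.60 and 6.91 against 6.99 and 6.33 TPM) and apart under ETH (7.16 and 5.78 against 2.49 and 2.28 TPM). The call held in 4 of 8 fits without 1 library and was lost without replicate 1 of Ctrli ETH (0.0283), Ctrli TAM (0.0250) or YAPi ETH (0.0188) and without replicate 2 of YAPi TAM (0.0178).

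For SCNN1G, a subunit of the epithelial sodium channel, the TAZi effect in TAM minus that in ETH was -0.99 (adjusted p = 0.00232 by DESeq2, 0.0526 by edgeR). TAZi held 3.02 and 2.60 TPM under TAM against 5.08 and 5.21 in Ctrli, and 8.49 and 8.48 TPM under ETH against 8.59 and 7.41. DESeq2 gave an adjusted p in 4 of the fits without 1 library, and the call held in none of these 4. It was also lost in the DESeq2 fit over all groups of the cell line (0.0529).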

How the results depend on the processing

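Of 214 recomputed counts of members called over 19 comparisons, 188 stayed within 1.5 times the value reported and 26 moved. With effective length offsets the count in YAPi TAM went from 3 to 1. With genes of a mean count under 10 left out it went from 0 to 1 in TAZi TAM and from 1 to 2 in JUNBi TAM, the latter also with edgeR. In MDA-MB-231 set 1, YAPi went from 0 to 1 with edgeR, with a fit over all groups and with the mean count of at least 10; YAPi_TAZi went from 1 to 0 with the controls of both sets, with effective length offsets and with the remaining set 1 knockdowns as reference plus a replicate block, and TEADi from 1 to 0 with the last. Leaving out 1 library gave 1 to 2 in YAPi TAM (reported 3), 0 in YAPi ETH (reported 1), 0 to 1 in JUNBi ETH and in the JUNBi interaction (reported 0), 0 in YAPi_TAZi and 0 to 1 in TEADi (reported 1 each). Of the members' own values 737 kept their direction and side of the threshold, 60 lost a call, 20 gained one and 0 reversed. The causes were not tested.

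The replicate numbers pair libraries by number only: residuals of same-numbered libraries correlated at -0.052 to 0.228 in the comparisons of 2 ER-Src groups, over 2 pairs each. With the replicate block YAPi_TAZi went from 1 to 0, and KLK6 in YAPi TAM had an adjusted p of 0.01003. Against other knockdowns with TAM, the block ended the calls of KLK6 in YAPi against TAZi (0.355) and STAT3i (0.160) and of PRSS8 in YAPi against TAZi (0.0156) and JUNBi (0.0208) and in STAT3i against TAZi (0.0726). It also ended those of IVL (0.265), SPINT1 (0.121) and SPINK5 (0.0295) in YAPi TAM and of TMPRSS13 (0.0248) and SPINK5 (0.0269) in YAPi ETH. In TAZi ETH it ended those of SPINT1 (0.0351) and FLG (0.0165), and in Ctrli TAM against Ctrli ETH that of PRSS23 (0.0224). It ended no other call named for which that fit gave an adjusted p. TMM factors shifted the median log2 fold change by 0.0497 or less in ER-Src and by -0.1153 to -0.1025 in set 1. Depth limits KLK7, KLK8, KLK10, KLK11 and HPN, which have too few counts for a test in most comparisons.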
